A study of Homo sapiens with 10 samples.

Results

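The set described here holds 10 genes of the switch that takes a cell from G1 into S phase: the D cyclins CCND2 and CCND3, the E cyclins CCNE1 and CCNE2, the kinases CDK4 and CDK6, the inhibitors CDKN1B, CDKN2C and CDKN2D, and the transcription factor E2F1. They are the rows of the gene count table that carry these symbols, 10 of the 54628 listed. All 10 passed the filter on low counts and are among the 20125 genes tested. The cells were NK-92, an established human natural killer cell line, grown with human serum (2%) in Artemis Medium-1, and polyadenylated RNA was sequenced. The 5 groups of 2 libraries were untreated cells (0 h), cells given 500 µM DFO for 6 h or 24 h, and cells given 10 µg/mL PPMX-T003 (T003 below) for 6 h or 24 h. DFO, deferoxamine, is a small molecule that chelates iron, and T003 is an antibody against transferrin receptor 1, the protein that carries transferrin-bound iron into cells. All libraries come from 1 cell line, and no untreated culture kept for 6 h or 24 h is among the groups. An agent's effect and time in culture therefore cannot be told apart in comparisons with untreated cells or between 6 h and 24 h.

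In G1, growth signals raise D cyclins, which bind CDK4 or CDK6 and start the phosphorylation of the retinoblastoma protein RB1. Phosphorylated RB1 releases E2F factors, which switch on the E cyclins and the genes of DNA replication, and cyclin E with CDK2 completes the step. INK4 inhibitors, which include CDKN2C and CDKN2D, bind CDK4 and CDK6 and keep D cyclins off them. Cip/Kip inhibitors such as CDKN1B bind cyclin E with CDK2. In lymphocytes the main D cyclins are CCND2 and CCND3, and CDK6 is abundant. Iron is needed further on, by ribonucleotide reductase, the enzyme that makes the building blocks of DNA.

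The libraries held 107117892 to 143575614 estimated counts each. Levels are given in CPM (counts divided by library size, with edgeR's TMM factors), in which 3 counts of a library correspond to 0.0209 to 0.0280. TFRC, the transferrin receptor gene, whose mRNA is known to last longer when iron is low, was read beside the set. For this gene too, an agent's effect and time in culture cannot be told apart. Its mean was 171 ± 8.46 CPM (SD, n = 2) in untreated cells and 353 ± 11.5, 428 ± 12.9, 834 ± 0.812 and 846 ± 1.32 CPM after DFO 6 h, T003 6 h, DFO 24 h and T003 24 h. All 11 natural killer cell markers looked at were at a mean of 1 CPM or more, with a summed level of 2227 to 2445 CPM over the libraries. Of 8 T cell markers only CD3E and TRAC reached 1 CPM, with CD3G and CD8B at 0, and the summed level was 436 to 482 CPM. B cell markers summed to 0.284 to 2.21 CPM, erythroid markers to 0 to 0.152 and myeloid markers to 7.53 to 10.4. Of 5 stromal and epithelial markers only VIM, which lymphoid cells also express, reached 1 CPM; the summed level of these 5 was 552 CPM in untreated cells, 571 and 599 at 6 h of DFO and T003, and 459 and 482 at 24 h, and its part in the results below was not tested. In bulk RNA, a change in the share of cells at one stage of the cycle and a change in RNA per cell cannot be told apart.

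Per transcript length, the kinase CDK4 and the cyclin CCND3 were the most abundant of the 10 mRNAs and the inhibitor CDKN2D the least. Levels of different genes are compared here only as CPM per kilobase (kb) of the MANE Select transcript. In untreated cells CDK4 was at 102 ± 0.641 CPM per kb (SD, n = 2), CCND3 at 90.9 ± 0.604 and E2F1 at 77.8 ± 1.25. CDKN2C followed at 61.7 ± 2.69, CCND2 at 48.0 ± 1.29 and CDK6 at 46.7 ± 0.395 CPM per kb. A gap separated these 6 genes from CDKN1B at 11.05 ± 0.186, CCNE1 at 8.70 ± 0.121, CCNE2 at 4.36 ± 0.318 and CDKN2D at 3.54 ± 0.330 CPM per kb. CDK6 has the highest count of the 10 genes, but its transcript of 11663 bases is also the longest, and per length it lay below CDK4.

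The order was the same in every group but T003 24 h, where CCND2 at 56.6 CPM per kb stood above CDKN2C at 51.5. In untreated cells, no neighbours in the order had overlapping libraries. CCND2 and CDK6 overlapped after DFO 6 h, and CDKN2C and CCND2 overlapped after DFO 24 h, so those neighbours did not differ beyond their spread. Within the D cyclins, CCND2 made up 34.0% to 36.8% of the level per kb over the 10 libraries. CDK6 made up 30.3% to 33.4% of CDK4 and CDK6 together, and CDKN2C 94.4% to 95.6% of CDKN2C and CDKN2D together. Among the E cyclins, CCNE1 held 65.3% and 68.0% in the 2 untreated libraries and 57.8% to 62.8% in the 8 treated ones, which do not overlap with them. This share rests on counts of CCNE2, which are uncertain in level because more abundant genes overlap it. The share was not tested, and how often such ratios do not overlap in other genes was not computed.

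**Figure D1:**
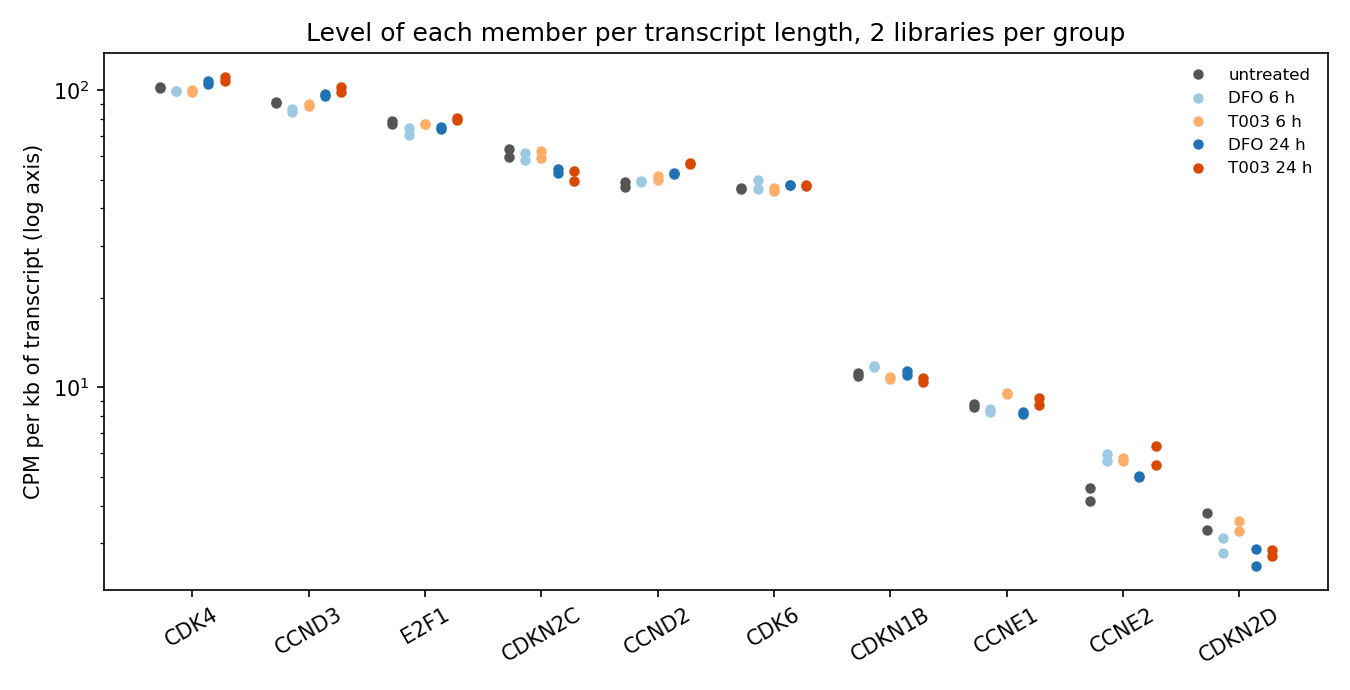
Level of each of the 10 genes, in CPM per kb of transcript on a log axis, with 1 point per library and 2 libraries per group, ordered by the untreated mean. CDK4, CCND3 and E2F1 lie highest, 6 genes lie above 45 CPM per kb, and CDKN1B, CCNE1, CCNE2 and CDKN2D lie below 12.

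CCND2, the D cyclin that cytokine signals induce in lymphocytes, rose at 24 h of both agents, and the change was small. CCND2 lies at chr12:4273762-4305353 (hg38) and its MANE Select transcript has 5 exons. It stood at 318 and 306 CPM in the untreated libraries, 320.4 and 319.6 after DFO 6 h, 323 and 332 after T003 6 h, 338 and 341 after DFO 24 h, and 367 and 368 after T003 24 h. Every treated library lay above both untreated ones, and the T003 24 h libraries lay above all others. The level was 8.97% higher after DFO 24 h than in untreated cells (log2 fold change 0.12, SE 0.024, adjusted p = 0.0119, edgeR's quasi-likelihood test with Benjamini-Hochberg adjustment over all tested genes). After T003 24 h it was 17.9% higher (log2 fold change 0.24, SE 0.024, adjusted p = 0.000143). At 6 h the log2 fold changes were 0.04 for DFO (adjusted p = 0.570) and 0.07 for T003 (adjusted p = 0.569). The T003 call at 24 h held in 17 of 17 alternative fits. The DFO call at 24 h did not hold without replicate 2 of the untreated cells (adjusted p = 0.133) or without DFO 24 h replicate 2 (0.0886).

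CCND3, the D cyclin that is the most abundant per length here, rose at 24 h of T003 by 10.5%. The gene lies at chr6:41934933-42050035 on the minus strand. It was at 183 and 185 CPM in untreated cells, 174 and 171 after DFO 6 h, 179 and 181 after T003 6 h, 193 and 196 after DFO 24 h, and 207 and 200.2 after T003 24 h. Both 6 h groups lay below the untreated libraries and both 24 h groups above them, with no overlap. The log2 fold change was 0.14 after T003 24 h (SE 0.024, adjusted p = 0.00293 by edgeR) and was called in 17 of 17 alternatives. After DFO 24 h it was 0.08 (SE 0.024, adjusted p = 0.0814), which missed the threshold with edgeR and passed it with DESeq2 (adjusted p = 0.0364). At 6 h it was -0.09 for DFO and -0.03 for T003, with adjusted p of 0.209 and 0.830.

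RefSeq's promoter table (GRCh38.p14) matched 8 of the 10 genes, with 13 entries, each read here over the 250 bases before a transcript start. CCND2 and CCNE2 had no entry. The windows were searched on both strands for 3 motifs, chosen after the expression values were seen: CACGTG, the E-box that MYC and its relatives bind, the E2F core written as TTCCCGC or TTCGCGC or TTGCCGC or TTGGCGC, and the GAS element TTCNNNGAA that STAT factors bind. Of 35116 promoters in the table, 6.34% held the E-box, 10.9% the E2F core and 6.57% the GAS element. Among the 13 entries 3 held an E-box, 2 an E2F core and 0 a GAS element. E-boxes lay in entries of CDK4, which rose after T003 24 h, and of CDKN2C, which fell at 24 h of both agents. E2F cores lay in entries of CDKN2C and E2F1. A match describes the letters and is not evidence of binding, and windows without a match say nothing of the factor. The sequences of CCND3, CDK4 and E2F1, the most abundant cyclin, kinase and factor of the set, show these windows, 5′ to 3′ on the gene's strand. For CCND3 the entry at chr6:41941809-41942058 (minus strand) is shown, which lies outside annotated exons and holds none of the 3 motifs.
CCND3: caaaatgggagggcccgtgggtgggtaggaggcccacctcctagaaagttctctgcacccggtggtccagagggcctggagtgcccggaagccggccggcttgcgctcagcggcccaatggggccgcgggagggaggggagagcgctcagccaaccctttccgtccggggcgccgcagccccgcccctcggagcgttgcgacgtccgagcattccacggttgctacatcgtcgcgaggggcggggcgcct

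CDK4, the kinase partner of D cyclins, had group means in the same order as those of CCND3 and rose after T003 24 h. It lies at chr12:57747727-57752310 on the minus strand. Its window held 3 E-boxes, whose last bases lie 211, 191 and 96 bases before the transcript start. The stretch at chr12:57752448-57752560 (minus strand), 250 to 138 bases before the start, lies outside annotated exons and holds the first of these and the next, in capitals.
CDK4: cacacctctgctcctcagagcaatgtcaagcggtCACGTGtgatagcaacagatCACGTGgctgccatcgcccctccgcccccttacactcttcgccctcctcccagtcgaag

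CDK4 stood at 189.6 and 191 CPM in untreated cells, 185 and 184 after DFO 6 h, 186 and 184 after T003 6 h, 196 and 200.2 after DFO 24 h, and 206 and 199 after T003 24 h. As for CCND3, both 6 h groups lay below and both 24 h groups above the untreated libraries. At 6 h the log2 fold change was -0.04 for DFO and -0.04 for T003, with adjusted p of 0.492 and 0.757 by edgeR. The level was 6.36% higher after T003 24 h (log2 fold change 0.09, SE 0.024, adjusted p = 0.0315 by edgeR). After DFO 24 h the log2 fold change was 0.06 (SE 0.024, adjusted p = 0.205). The T003 call held in 11 of 17 alternatives. It did not hold without untreated replicate 1 (adjusted p = 0.165) or 2 (0.116), T003 6 h replicate 1 (0.0592) or T003 24 h replicate 1 (0.276), without a filter on low counts (0.0815), or in a fit of the compared groups alone (0.0683). TSPAN31 overlaps CDK4 over 2493 bases with a mean of 1702.8 counts against 24381.6 for CDK4. It changed by 0.06 (DFO) and -0.03 (T003) on the log2 scale at 24 h, with adjusted p of 0.813 and 0.878, and how reads in the overlap were shared was not tested.

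CDK6, the kinase with the highest count in these cells, did not pass the test in any comparison. It lies at chr7:92604921-92836573 on the minus strand. The libraries stood at 548 and 542 CPM in untreated cells, 580.5 and 542 after DFO 6 h, 536 and 545 after T003 6 h, 559 and 560.0 after DFO 24 h, and 559 and 554 after T003 24 h. One library, DFO 6 h replicate 1, lay above all others, and its partner lay among the untreated ones. The log2 fold change was 0.04 after DFO 24 h (95% interval -0.026 to 0.10) and 0.03 after T003 24 h (-0.032 to 0.095). The 2 agents differed at 24 h by 0.01 on the log2 scale (DFO against T003, -0.057 to 0.069).

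E2F1, the factor that RB1 holds back in G1, lay lower after DFO than after T003 at both times, and none of its changes was called by edgeR. The gene lies at chr20:33675477-33686385 on the minus strand. The 250 bases before its start, at chr20:33686386-33686635, hold 2 E2F cores, whose last bases lie 27 and 13 bases before the start, shown in capitals.
E2F1: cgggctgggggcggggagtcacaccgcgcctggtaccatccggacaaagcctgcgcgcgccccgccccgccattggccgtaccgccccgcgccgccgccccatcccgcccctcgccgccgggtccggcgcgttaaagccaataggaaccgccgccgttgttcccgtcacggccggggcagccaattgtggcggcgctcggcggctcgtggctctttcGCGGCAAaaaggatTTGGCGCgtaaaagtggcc

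E2F1 was at 207 and 212 CPM in untreated cells, 190.1 and 200.1 after DFO 6 h, 207 and 207 after T003 6 h, 202 and 199.7 after DFO 24 h, and 217 and 213 after T003 24 h. At 24 h both DFO libraries lay below the untreated ones and both T003 libraries above them. The log2 fold changes from untreated cells were -0.06 (SE 0.027, adjusted p = 0.280) and 0.04 (SE 0.027, adjusted p = 0.436). The difference between agents at 24 h was -0.10 (DFO against T003, SE 0.027, adjusted p = 0.119 by edgeR), and DESeq2 called it (adjusted p = 0.0178). At 6 h of DFO the log2 fold change was -0.10 (adjusted p = 0.209), which DESeq2 also called (adjusted p = 0.0192).

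**Figure D2:**
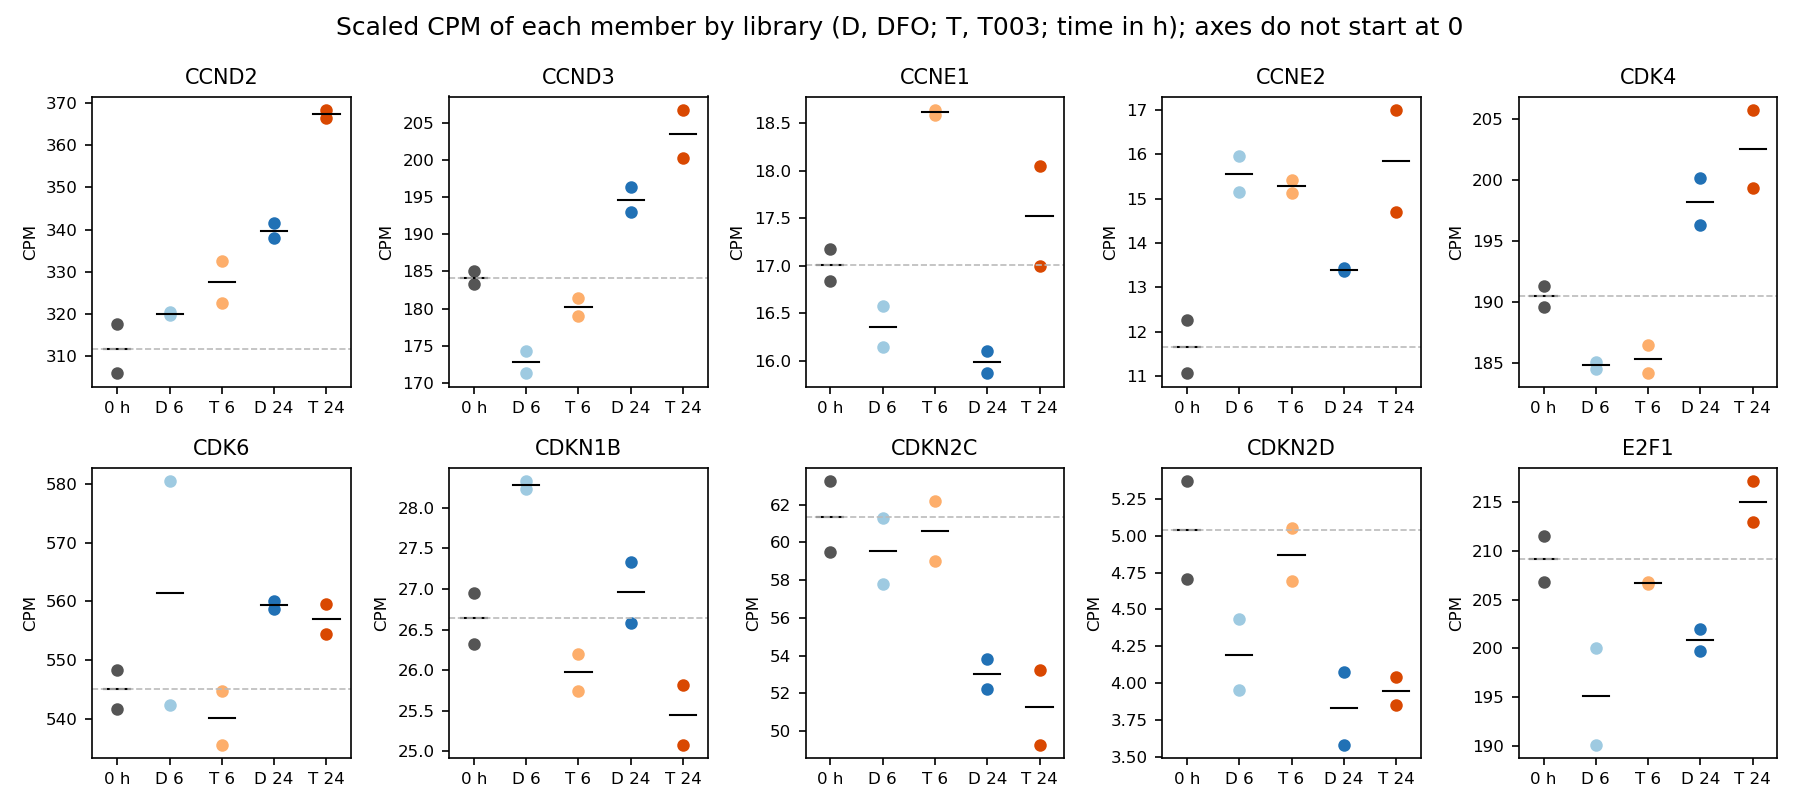
Scaled CPM of each gene in each library, 1 point per library and a bar at each group's mean, with a dashed line at the untreated mean. The axes do not start at 0. CCND2, CCND3 and CDK4 lie highest at 24 h (T 24: CCND2 at 367 and 368), and CDKN2C and CDKN2D lie below the untreated libraries in both 24 h groups.

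CCNE2, one of the E cyclins that activate CDK2, had the largest rise of the set. It lies at chr8:94880224-94896693. The untreated libraries held 12.3 and 11.1 CPM, DFO 6 h 16.0 and 15.2, T003 6 h 15.1 and 15.4, DFO 24 h 13.4 and 13.4, and T003 24 h 17.0 and 14.7. All 8 treated libraries lay above both untreated ones. The level was 36.0% higher after T003 24 h (log2 fold change 0.44, SE 0.081, adjusted p = 0.00470 by edgeR). That call did not hold without untreated replicate 2 (log2 fold change 0.37, adjusted p = 0.0569) or T003 24 h replicate 1 (0.33, 0.0541). The log2 fold changes at 6 h were nearly as large, 0.42 for DFO and 0.39 for T003 (SE 0.081 for each), with adjusted p of 0.177 and 0.335. After DFO 24 h it was 0.20 (SE 0.081, adjusted p = 0.198).

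Counts of CCNE2 can take in reads of its neighbours, since 2 more abundant genes overlap it. INTS8, with a mean of 9391 counts against 1812 for CCNE2, shares 1523 bases, and NDUFAF6, with 3427 counts, shares 895. Neither was called at 24 h: INTS8 had log2 fold changes of -0.03 after DFO 24 h and -0.12 after T003 24 h (adjusted p = 0.756 and 0.0725), and NDUFAF6 had 0.05 and -0.03 (adjusted p = 0.791 and 0.854). The counts of CCNE2 are therefore given as uncertain in level.

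CCNE1, the other E cyclin, was not called in any comparison. It lies at chr19:29811991-29824312 on the plus strand and has 12 exons. It was at 16.8 and 17.2 CPM in untreated cells, 16.6 and 16.1 after DFO 6 h, 18.6 and 18.6 after T003 6 h, 15.9 and 16.1 after DFO 24 h, and 17.0 and 18.04 after T003 24 h. DFO libraries lay below and T003 6 h libraries above the untreated ones, with T003 24 h overlapping them. The log2 fold changes from untreated cells were -0.06 and 0.13 at 6 h of DFO and T003 and -0.09 and 0.04 at 24 h, with adjusted p of 0.457 to 0.751. The difference between agents was -0.19 at 6 h and -0.13 at 24 h (DFO against T003, SE 0.056 for each, adjusted p = 0.706 and 0.323).

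CDKN2C, the more abundant of the 2 INK4 inhibitors in the set, fell at 24 h of both agents. It lies at chr1:50960745-50974634 on the plus strand. It stood at 59.5 and 63.3 CPM in untreated cells, 57.8 and 61.3 after DFO 6 h, 62.2 and 59.0 after T003 6 h, 52.2 and 53.8 after DFO 24 h, and 53.2 and 49.3 after T003 24 h. The 6 h libraries overlapped the untreated ones, and all 4 libraries at 24 h lay below every other library. After DFO 24 h it fell by 13.6%, a log2 fold change of -0.21 (SE 0.049, adjusted p = 0.0267 by edgeR). After T003 24 h it fell by 16.5%, a log2 fold change of -0.26 (SE 0.049, adjusted p = 0.00555). The DFO call did not hold without untreated replicate 2 (adjusted p = 0.245), DFO 24 h replicate 1 (0.154) or replicate 2 (0.0949), and the T003 call did not hold without untreated replicate 2 (0.0652) or T003 24 h replicate 2 (0.0587).

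CDKN2D, the other INK4 inhibitor, was the least abundant of the 10 and had the largest negative fold changes, none of them called. It lies at chr19:10566460-10568979 on the minus strand. It was at 4.71 and 5.37 CPM in untreated cells, 3.95 and 4.43 after DFO 6 h, 4.69 and 5.05 after T003 6 h, 4.08 and 3.58 after DFO 24 h, and 4.04 and 3.85 after T003 24 h. Both 24 h groups and the DFO 6 h group lay below the untreated libraries. The log2 fold change was -0.40 after DFO 24 h (SE 0.115, adjusted p = 0.0678 by edgeR) and -0.35 after T003 24 h (SE 0.115, adjusted p = 0.0725). With only genes at 1 CPM or more in 2 libraries tested, both passed the threshold (adjusted p = 0.0404 and 0.0406).

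CDKN1B, the Cip/Kip inhibitor that is cleared before S phase mainly by protein breakdown, was not called in any comparison. It lies at chr12:12717368-12722369 on the plus strand. It was at 26.95 and 26.3 CPM in untreated cells, 28.3 and 28.2 after DFO 6 h, 25.7 and 26.2 after T003 6 h, 27.3 and 26.6 after DFO 24 h, and 25.1 and 25.8 after T003 24 h. DFO 6 h libraries lay above and those of both T003 groups below the untreated ones, while DFO 24 h overlapped them. The log2 fold changes were 0.09, -0.04, 0.02 and -0.07 in that order, with adjusted p of 0.425 to 0.911.

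Read over the set, the early comparisons held 0 calls and the late ones several. After DFO 6 h and T003 6 h, 0 of 10 genes were called by edgeR against untreated cells, where 0.0248% and 0.0298% of all tested genes were. At an unadjusted p under 0.05 the counts were 4 and 3 of 10, beside 12.4% and 7.53% of all tested genes. DESeq2 called CCND3 and E2F1 at 6 h of DFO, among 421 of all genes, and 0 of the 10 at 6 h of T003, among 75, while limma-voom called 0 of the 10 in both. After DFO 24 h 2 of 10 were called, CCND2 higher and CDKN2C lower, against 6.7% of all tested genes (3.43% higher and 3.27% lower). After T003 24 h 5 of 10 were called, CCND2, CCND3, CCNE2 and CDK4 higher and CDKN2C lower, against 12.5% of all tested genes (7.1% higher and 5.44% lower). These shares of all genes also depend on single libraries. For DFO 24 h, 1349 genes were called, but 431 without untreated replicate 2, 781 without DFO 24 h replicate 1 and 529 without replicate 2, and 851 in the compared groups alone. For T003 24 h, 2524 were called, but 1675 and 1085 without untreated replicates 1 and 2, and 1312 and 1374 without T003 24 h replicates 1 and 2.

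The median log2 fold change of the 10 genes was 0.03 after DFO 24 h and 0.04 after T003 24 h, and that of all tested genes was -0.0023 and -0.0069. Libraries that did not overlap with the untreated ones were frequent in the set and in the whole table. They were found for 8 of 10 genes after DFO 6 h, 6 after T003 6 h, and 9 after DFO 24 h and after T003 24 h. Over all tested genes the shares were 43%, 39.3%, 49.3% and 52.8%. The comparisons share the same 2 untreated libraries.

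**Figure D3:**
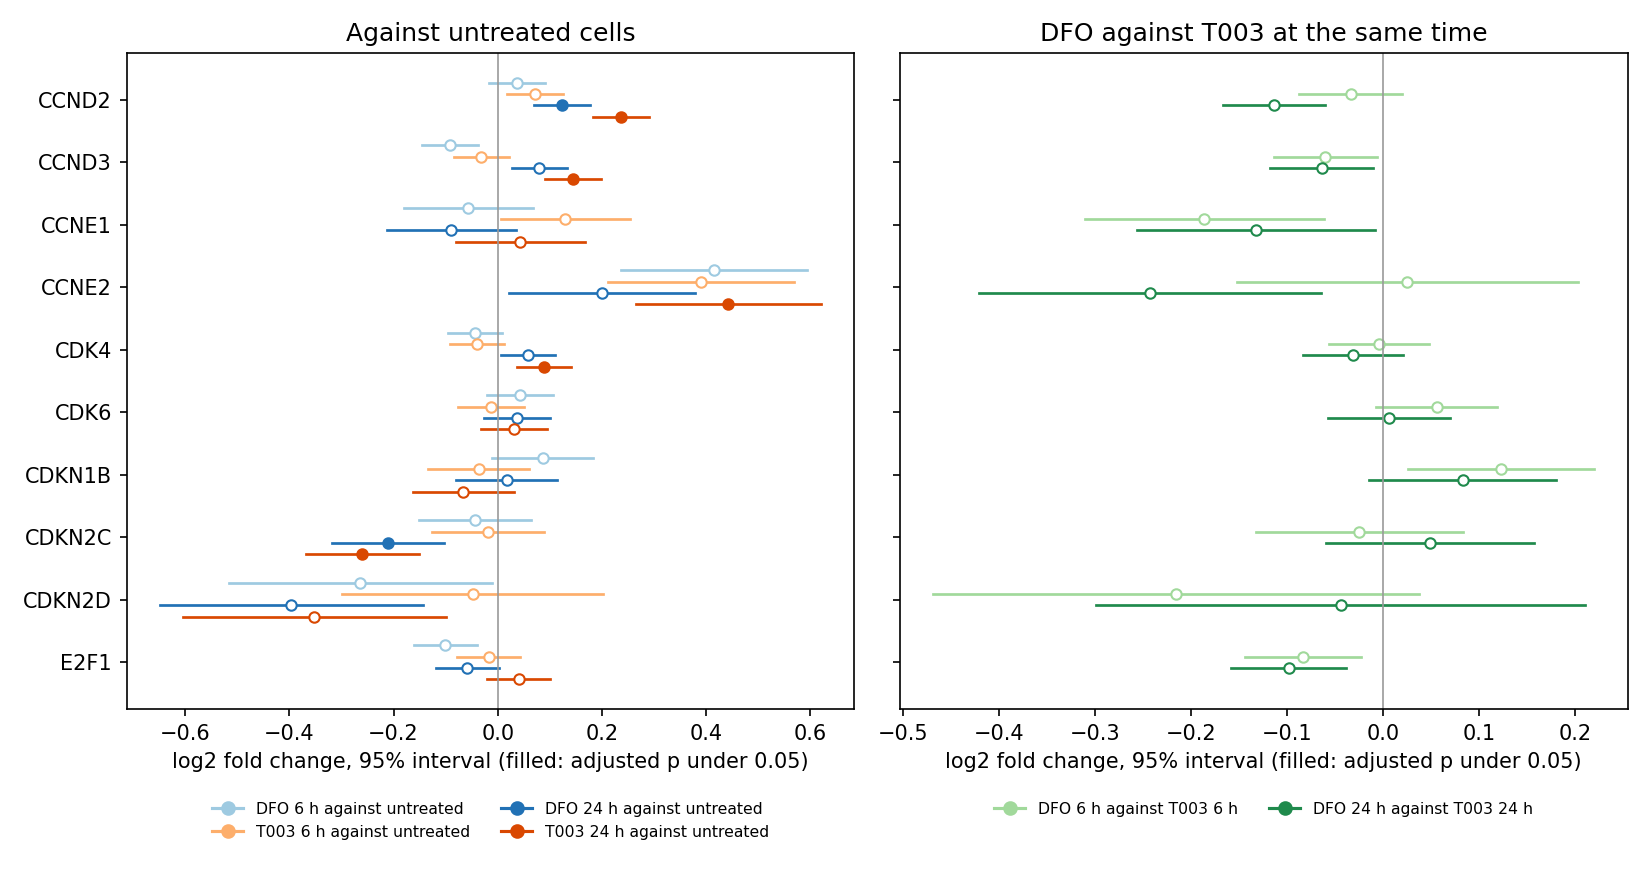
Log2 fold change of each gene with its 95% interval, against untreated cells (left) and between the agents at the same time (right). Filled points passed an adjusted p of 0.05 by edgeR. On the left, 5 genes are filled for T003 24 h and 2 for DFO 24 h. On the right none is filled, and CCND2 at 24 h (-0.11) lies closest to the threshold.

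Set directly against each other at 24 h, the agents were not separated on any of the 10 genes by edgeR, although the point estimates of 7 were lower with DFO. The lowest adjusted p was that of CCND2, whose level after DFO differed by -7.57% from that after T003 (log2 fold change -0.11, 95% interval -0.17 to -0.060, adjusted p = 0.0516). DESeq2 (adjusted p = 0.000474) and limma-voom (adjusted p = 0.0254) called this difference. An unadjusted p under 0.05 was reached by 5 of 10 genes, beside 13.9% of all tested genes. The DFO libraries lay wholly below the T003 libraries for 5 genes, CCND2, CCND3, CCNE1, CCNE2 and E2F1, and wholly above for 1, CDKN1B. Over all tested genes 1.34% were called between the agents at 24 h (0.457% higher with DFO, 0.884% lower), and for 43.9% the libraries did not overlap. These 270 calls became 41 and 27 without DFO 24 h replicate 1 or 2, 16 and 14 without T003 24 h replicate 1 or 2, 95 and 96 without T003 6 h replicate 1 or 2 and 175 without untreated replicate 2. They became 117 with a replicate block, 55 in the compared groups alone and 827 with DESeq2. CCNE2 differed by -0.24 (interval -0.42 to -0.064) and CDKN2C by 0.05 (-0.060 to 0.16) on the log2 scale. At 6 h, DFO against T003 gave 0 of 10 calls and 0% of all tested genes by edgeR, with 4 of 10 and 6.63% of all tested genes at an unadjusted p under 0.05. DESeq2 called 7 and limma-voom 1 of all genes there, and both called 0 of the 10.

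Between 6 h and 24 h of the same agent the D cyclins and CDK4 rose with both agents. Here too, an agent's effect and time in culture cannot be told apart. With DFO, 3 of 10 genes were called, all higher at 24 h, against 9.89% of all tested genes (5.29% higher and 4.6% lower). CCND3 rose by 12.6% (log2 fold change 0.17, adjusted p = 0.00124), CDK4 by 7.27% (0.10, adjusted p = 0.0207) and CCND2 by 6.16% (0.09, adjusted p = 0.0483). With T003, 4 of 10 were called, against 13.5% of all tested genes (7.55% higher and 5.93% lower). CCND3 rose by 12.9% (log2 fold change 0.18, adjusted p = 0.000808), CCND2 by 12.2% (0.17, adjusted p = 0.00111) and CDK4 by 9.31% (0.13, adjusted p = 0.00441), and CDKN2C fell by 15.4% (log2 fold change -0.24, adjusted p = 0.00758). With DFO the log2 fold change of CDKN2C was -0.17 (adjusted p = 0.0552).

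The CCND3 calls held in 17 of 17 alternatives for both agents, and so did that of CCND2 with T003. That of CCND2 with DFO held in 7 of 17. It did not hold with a replicate block (adjusted p = 0.0734), without a filter on low counts (0.0511) or in the compared groups alone (0.0915). Without either DFO 6 h library its adjusted p was 0.161 and 0.0998, without either DFO 24 h library 0.103 and 0.196, without T003 6 h replicate 1 0.0656, and without either T003 24 h library 0.0683 and 0.0652. That of CDK4 with DFO did not hold without DFO 6 h replicate 1 (0.0777) or DFO 24 h replicate 2 (0.122) or in the compared groups alone (0.0666). With T003, that of CDK4 did not hold without T003 24 h replicate 1 (0.0682), and that of CDKN2C without T003 6 h replicate 1 (0.0713) or T003 24 h replicate 2 (0.0711). Whether the change over time differed between the agents was tested as an interaction. It was called for 0 of 10 genes and 0.0199% of all genes by edgeR, with 2 of 10 and 9.2% of all tested genes at an unadjusted p under 0.05 and a lowest adjusted p of 0.508 (CCNE2); DESeq2 and limma-voom also called 0 of 10, among 169 and 19 of all genes. The counts of all genes called over time were unstable too: 1991 for DFO became 950 without DFO 6 h replicate 1, 1161 and 999 without DFO 24 h replicate 1 or 2 and 1293 in the compared groups alone. The 2714 for T003 became 1336 and 1590 without T003 6 h replicate 1 or 2, and 1434 and 1627 without T003 24 h replicate 1 or 2.

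The genes that work with the set were read from 7 lists. Counts of calls in every list stand beside 6.7% of all tested genes called after DFO 24 h (3.43% higher and 3.27% lower). After T003 24 h that share was 12.5% (7.1% higher and 5.44% lower). No set test was made, so the counts are not results about a list as a whole. Of 12 other cyclins, CDKs and their activators 11 were tested, with medians of 0.08 and 0.07 on the log2 scale after DFO 24 h and T003 24 h, and 1 and 2 were called higher and 0 lower. CDC25A, the phosphatase that removes inhibitory phosphates from CDK2, rose after DFO 24 h (log2 fold change 0.10, adjusted p = 0.0496) and T003 24 h (0.20, adjusted p = 0.000698). CDC37, the chaperone partner that loads CDK4 onto HSP90, rose after T003 24 h (0.12, adjusted p = 0.0280). CDK2, the kinase of cyclin E, was at 113 ± 1.20 CPM in untreated cells (SD, n = 2) and 113 to 118 in the group means of treated cells, and its 24 h values on the log2 scale were 0.01 and 0.07 (adjusted p = 0.955 and 0.312). CCND1, the third D cyclin, had group means of 0.156 to 0.250 CPM and was not called.

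Of 5 other CDK inhibitors, 3 were tested and 0 called by edgeR at 24 h of either agent, with 0 also at an unadjusted p under 0.05 and by DESeq2 and limma-voom. Their median log2 fold changes were 0.15 after DFO 24 h and 0.10 after T003 24 h, and a median of 3 genes is the value of 1 of them. CDKN2A had means of 179, 198 and 192 CPM in untreated cells, DFO 24 h and T003 24 h. CDKN2B had 0.288, 0.448 and 0.338 CPM in that order, and CDKN3 had 13.1, 12.2 and 11.7. CDKN1A, the Cip/Kip inhibitor that p53 induces, was below the count filter, with group means of 0.0104 CPM in untreated cells, 0.0381 after T003 6 h and 0 in the other groups. The upper limit that a count of 0 allows is 0.0209 to 0.0280 CPM in single libraries. CDKN2A, which encodes another INK4 inhibitor and was singled out after its level was seen, had group means of 166 to 198 CPM.

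In the RB and E2F family, 1 of 12 was called after DFO 24 h (3 by DESeq2) and 3 of 12 after T003 24 h, with median log2 fold changes of 0.05 and 0.04. RB1, the target of cyclin D kinases, rose after DFO 24 h (log2 fold change 0.12, SE 0.029, adjusted p = 0.0342), and after T003 24 h the value was 0.04 (adjusted p = 0.464). After DFO 6 h it was already 0.11 (SE 0.029, adjusted p = 0.201). The mean of RB1 was 230 ± 2.34 CPM in untreated cells, 249 ± 1.38 after DFO 6 h and 249 ± 11.2 after DFO 24 h (SD, n = 2). E2F2, an activator like E2F1, rose after T003 24 h by 22.7% (0.29, adjusted p = 0.000225), and so did E2F8, a repressor of E2F targets, by 18.01% (0.24, adjusted p = 0.000908). RBL1, an RB1 relative that also binds E2F factors, fell by 0.21 on the log2 scale after T003 24 h (adjusted p = 0.00768). The difference between the agents at 24 h was called by edgeR for E2F2 and E2F8, both lower with DFO by 0.20 (adjusted p = 0.0184 and 0.0202). The 270 calls of that comparison became 117 with a replicate block and 55 in the compared groups alone. Single genes of the lists were not followed through these fits. The difference of E2F1, which edgeR did not call and DESeq2 did, had the same sign.

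Of 7 DREAM and MuvB genes, which repress and then activate cell cycle genes, 0 were higher and 2 lower after DFO 24 h, and 1 higher and 1 lower after T003 24 h (medians -0.11 and -0.13 on the log2 scale). FOXM1, an activator of G2 and mitotic genes, fell by 0.16 and 0.17 on the log2 scale (adjusted p = 0.00805 and 0.00271). LIN37, a MuvB subunit, fell by 0.44 after DFO 24 h (adjusted p = 0.0456), and MYBL2, which joins MuvB in S phase, rose by 0.15 after T003 24 h (adjusted p = 0.00627). Of 9 genes for the turnover of cyclins and inhibitors, 2 were higher and 1 lower after DFO 24 h, and 3 higher after T003 24 h (medians 0.0068 and 0.06). CUL1, the scaffold of the SCF ubiquitin ligases, rose with both agents (log2 fold changes 0.17 and 0.21, adjusted p = 0.00397 and 0.000667). After DFO 24 h SKP2, which marks CDKN1B for breakdown, rose by 0.09 (adjusted p = 0.0439), and AMBRA1, which marks D cyclins, fell by 0.13 (adjusted p = 0.0273). FBXW7, which marks cyclin E, rose after T003 24 h by 0.22 (adjusted p = 0.0308), as did FBXO31 by 0.15 (adjusted p = 0.0432).

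Upstream of the set, 4 of 12 regulators were called after DFO 24 h, 2 in each direction, and 5 after T003 24 h, 3 higher and 2 lower (medians -0.01 and 0.05 on the log2 scale). MYC, which induces CCND2 and CDK4 in other settings, stood at 556 ± 31.8 CPM in untreated cells (SD, n = 2) and rose after DFO 24 h (log2 fold change 0.24, adjusted p = 0.00639) and T003 24 h (0.38, adjusted p = 0.000251). PRDM1, a repressor that ends proliferation in maturing lymphocytes, rose with both agents (0.35 and 0.51, adjusted p = 0.000849 and 4.93e-05). PIM1, a kinase made in response to cytokines, fell by 0.31 and 0.33 (adjusted p = 0.000331 and 0.000151). PIM2, its relative, fell in all 4 treated groups, by 0.26 after DFO 6 h (adjusted p = 0.0142), 0.22 after T003 6 h (0.0333), 0.24 after DFO 24 h (0.000532) and 0.12 after T003 24 h (0.0141). At 6 h, 5 genes in all were called after DFO (0.0248% of those tested) and 6 after T003 (0.0298%). With a replicate block these became 2 and 1, and whether PIM2 was among them was not recorded. DESeq2 and limma-voom each called 1 gene of this list lower at 6 h of either agent. FOXO3, an activator of CDKN1B in other settings, rose after T003 24 h (0.11, adjusted p = 0.0497) and was lower with DFO than with T003 at 24 h. This difference between the agents was not followed through the alternative fits.

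Of 24 replication genes that E2F factors drive, 0 were higher and 2 lower after DFO 24 h, and 4 higher and 1 lower after T003 24 h. ORC1, a subunit of the origin recognition complex, fell after DFO 24 h by 0.17 (adjusted p = 0.00350), and the helicase subunit MCM5 fell by 0.10 (adjusted p = 0.0368). RRM2, the iron-bearing subunit of ribonucleotide reductase, rose after T003 24 h by 0.13 (adjusted p = 0.00214), and MCM2, MCM4 and CDC6 rose by 0.10, 0.08 and 0.11. PCNA, the sliding clamp of DNA polymerase, fell by 0.13 after T003 24 h (adjusted p = 0.00355). Between the agents at 24 h, ORC1, MCM2 and RRM2 were lower and PCNA higher with DFO by edgeR, and DESeq2 called 9 of the list lower and 1 higher, in a comparison where it called 827 of all genes against 270 by edgeR. As for E2F2 and E2F8, the differences of these single genes were not followed through the alternative fits. The medians of this list were -0.01 after DFO 24 h and 0.05 after T003 24 h, beside -0.0023 and -0.0069 over all tested genes. PIM2, FOXO3, FBXW7, FBXO31, MCM2, MCM4, MCM5 and CDC6 fall outside the rule for named genes and were named after their values were seen.

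**Figure D4:**
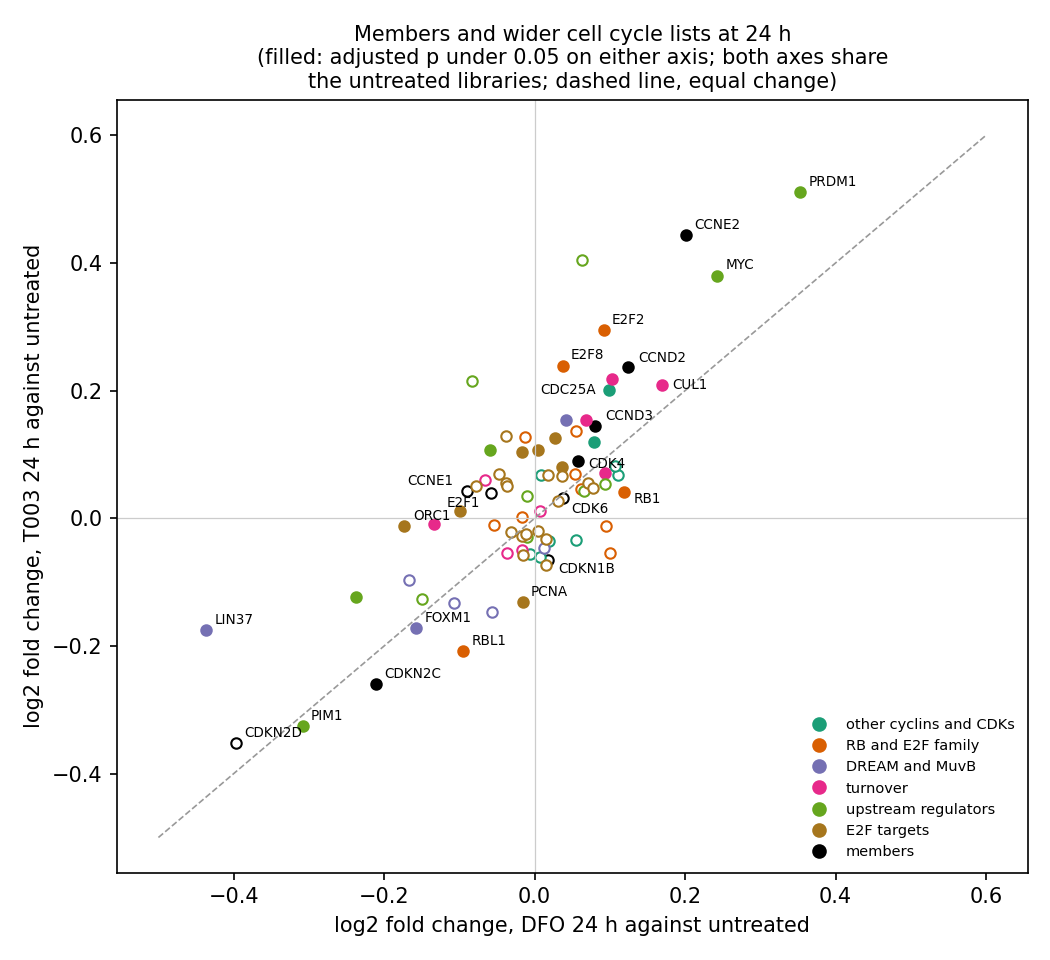
Log2 fold change at 24 h against untreated cells with DFO (horizontal) and T003 (vertical), for the 10 genes (black) and the tested genes of 6 wider lists at a mean of 1 CPM or more. Filled points passed an adjusted p of 0.05 on either axis. CCND2, CCNE2, MYC, E2F2 and PRDM1 lie above the dashed line of equal change. Among these, edgeR called a difference between the agents for E2F2 only. CDKN2C, CDKN2D and PIM1 lie in the lower left.

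Likeness to CCND2 and CCND3, the 2 members with the lowest p at 24 h, was measured as Pearson's r of log2 CPM over the 10 libraries among the 8031 genes whose log2 CPM averaged 4 or more. The genes most like CCND2 were ISG20L2 (r = 0.989), ZFP36L1 (r = 0.981) and TMEM192 (r = 0.973). Those most like CCND3 were PFKP (r = 0.982), SHISA5 (r = 0.981) and GRK6 (r = 0.981). Within the set the highest value was that of CCND3 with CDK4 (r = 0.965), and the lowest was that of CCND2 with CDKN2C (r = -0.886). These values describe 10 libraries in 5 groups that share treatments and scaling, and no p is given for them.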

How the data were processed

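Polyadenylated RNA of NK-92 cells was measured in 10 libraries. Per the submitters' processing notes and the design text, the authors trimmed reads with fastp 0.21.0, mapped them to hg38 with HISAT2 2.2.1 and counted them with StringTie 2.1.6 on the RefSeq annotation. The deposited values are estimated counts for each gene symbol, without normalization; they are whole numbers, and none was rounded. The strand setting of the counting (not given in the sources used here) is unknown, so reads of overlapping antisense genes cannot be told apart. The design text names 24 h alone, the sample labels 6 h and 24 h, and the labels were followed.

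Genes were kept with edgeR's filterByExpr (minimum count 10), scaled by TMM, and tested with edgeR 4.0.16 (R 4.3.3), the quasi-likelihood test over all 5 groups in 1 model, with Benjamini-Hochberg adjustment over 20125 genes and calls at an adjusted p under 0.05. Intervals are 95% and use the fit's degrees of freedom. The p-values reflect the spread between libraries within groups, pooled over the 5 groups and moderated across genes. The labels do not state that replicates are separate cultures, so this spread is possibly only technical. Levels per length use GENCODE v44 MANE Select transcripts, and gene coordinates are those of RefSeq GRCh38.p14. Scripts were tested on simulated data in which the changes were larger than those called in the set. Recovery of changes as small as these was not tested. Alternatives were RLE scaling, 2 other filters, DESeq2 1.42.0, limma-voom (limma 3.58.1), a replicate block, the compared groups alone, and leaving out each library. Correlations of same-numbered deviations over all tested genes were -0.052 to 0.012 over the 10 pairs of groups. They showed no pairing by replicate number across the table. A shared culture or day that touches few genes could be missed by them.

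The 10 genes and the lists were chosen with earlier results of these data known. Named genes are the 10, TFRC, at most 3 of each list (the smallest p among those called at 24 h against untreated cells), CDK2, CCND1, CDKN1A, RB1, and the 3 genes most like each of the 2 members with the smallest p.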

Additional observations from a re-analysis of the deposited data

Results flagged for a closer look

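For 4 genes the change from untreated cells differed between 6 h and 24 h of the same agent, by edgeR's test of the difference itself (adjusted p under 0.05). Time in culture also differs between these groups, and its part cannot be told apart from that of the agent. With DFO the log2 difference, 24 h against 6 h, was 0.0863 for CCND2, 0.172 for CCND3 and 0.101 for CDK4. With T003 it was 0.166 for CCND2, 0.175 for CCND3, 0.128 for CDK4 and -0.242 for CDKN2C. CCND3 and CDK4 lay below the untreated libraries at 6 h and above them at 24 h with both agents. Against untreated cells, edgeR called neither gene at 6 h of either agent or at 24 h of DFO, and both at 24 h of T003. DESeq2 also called CCND3 at 6 h and 24 h of DFO. Libraries that did not overlap with the untreated ones were found for 39.3% to 52.8% of all tested genes in these comparisons. Groups of 2 libraries are too small for a check of single outlying libraries.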

How the results depend on the processing

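The calls on the 10 genes were refitted under 17 alternatives. Of 238 refits of the 14 calls, 207 kept the call, 31 lost it and 0 changed sign. RLE scaling, a filter at 1 CPM in 2 libraries, DESeq2 and limma-voom lost 0 of 14 calls each, no filter 2, the compared groups alone 3, and leaving out 1 library 25 of 140 (a lone library is then assumed to vary like the other groups). Leaving out 1 library gave 0 to 2 called genes after DFO 24 h, 2 to 5 after T003 24 h and 1 to 3 for DFO 24 h against DFO 6 h. DESeq2 called 2 genes (CCND3 and E2F1) after DFO 6 h against 0 by edgeR. Between the agents at 24 h the count of 0 became 1 with the 1 CPM filter, 2 with DESeq2 (CCND2 and E2F1) and 1 with limma-voom (CCND2). In the compared groups alone, 1 gene in place of 3 was called for DFO 24 h against DFO 6 h. The cause was not tested.

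With the replicate block, the numbers of called genes were 2 after DFO 24 h, 5 after T003 24 h, 0 between the agents at 24 h, 2 for DFO 24 h against DFO 6 h and 4 for T003 24 h against T003 6 h. CCND2 for DFO 24 h against DFO 6 h lost its call under the block (adjusted p = 0.0734), and no other call changed. The least abundant gene, CDKN2D, lay at 3.58 CPM or more in every library and had the largest SE (0.115 after T003 24 h). Of the wider lists, only the counts of calls were recomputed, with DESeq2 and limma-voom.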
